A study of Mus musculus with 5 samples.

Results

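The selective autophagy receptors and the LC3 family were followed in mouse embryonic stem cells that carry a Trip12 mutation. The group has 10 named genes: the receptors Calcoco1, Calcoco2, Sqstm1, Nbr1 and Optn, the LC3 genes Map1lc3a and Map1lc3b, and the GABARAP genes Gabarap, Gabarapl1 and Gabarapl2. A gene counted as measured where the platform annotation gave at least 1 probe set its symbol and no other, and its brightest probe set, by the mean of all 5 arrays, stood for it; the probe sets were thus chosen by their signal, and the genes were selected on earlier results of these data, in which Calcoco2 was among the most increased genes. This gave 9 measured genes, out of 18193 genes on the array. Optn was not analysed here.

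The cells were of the E14 line and grew on mouse embryo fibroblast feeders in medium with serum replacement, fetal bovine serum and leukaemia inhibitory factor. The labels give 2 arrays of wild-type cells (WT) and 3 of cells homozygous for the mutation (Trip12 mut/mut), all called biological replicates, with no treatment or time point. Neither the nature of the mutation, nor whether the mutant cells are 1 clone, nor whether feeder cells were taken away before RNA extraction is stated in the labels, and nothing says that the replicates were separate cultures, so the spread between them may be technical. Each value is a log2 RMA value of 1 probe set on 1 array, so a difference of 1 is a 2-fold difference in signal.

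Autophagy encloses part of the cytoplasm in a double membrane and delivers it to the lysosome. In its selective form, receptor proteins bind ubiquitin-marked cargo at one side and proteins of the LC3 and GABARAP families, which are attached to the growing membrane by a lipid, at the other. The receptors are degraded with their cargo, and LC3 and SQSTM1 are therefore widely used as markers of the process at the protein level. Transcript levels do not measure autophagic activity.

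The 3 mutant arrays are called mut/mut 1, 2 and 3 below, and the WT arrays WT 1 and 2, by the replicate numbers of the labels. The array labelled mut/mut 1 stood with the WT arrays. It differed from each of them by more than 2-fold at 0 of 45037 probe sets, whereas mut/mut 2 and 3 differed from WT arrays at 293 to 545. WT 1 and WT 2 had exactly the same value at 20.5% of probe sets, and mut/mut 2 and 3 at 10.3%. For WT 1 and the array labelled mut/mut 1 the share was 21.1%. The source of such ties was not tested. Trip12 itself, which encodes a HECT-type ubiquitin ligase, read 10.17 and 10.25 in WT, 10.18 on the array labelled mut/mut 1, and 12.09 and 12.57 on mut/mut 2 and 3. Trip12 has 6 other probe sets, and these disagreed: 3 had mut/mut 2 and 3 above both WT arrays, 1 had them below, and their differences from WT ran from -0.64 to 1.11. On all 7 the array labelled mut/mut 1 lay between 0.033 below and 0.12 above the WT mean. The signal of the targeted transcript on the array labelled mut/mut 1 was thus at the WT level, unlike on mut/mut 2 and 3, so each direction given here is drawn from those 2 mutant arrays. The labels do not say whether the Trip12 probe set lies in the mutated part of the gene. Pou5f1, which defines embryonic stem cells, read between 12.25 and 12.48 on all 5 arrays. Of the 15 embryonic stem cell markers, 4 lay above both WT arrays on mut/mut 2 and 3 and 5 below. Pou5f1 was among the latter, at a difference of -0.13. Of all genes that were not dim, 35.2% lay above and 22.1% below. Without the array labelled mut/mut 1 and with dim genes removed, limma called 1 of the 15, beside 4.64% of all genes tested. The gene called was Utf1, which fell by 0.80 (limma, adjusted p = 0.0422) and was named after its value was seen. The values of the receptor and LC3 family genes are given with the array labelled mut/mut 1 and without it; the other gene lists are described without it, each with its median over all 5 arrays.

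Of the 9 measured genes, 7 read higher on both mut/mut 2 and 3 than on either WT array, and 0 read lower on both. Calcoco2 stood farthest from WT, at 2.54-fold the WT mean, and the other 6, Sqstm1, Nbr1, Map1lc3a, Map1lc3b, Gabarap and Gabarapl2, lay between 1.25-fold and 1.41-fold. Calcoco1 and the brightest Gabarapl1 probe set were the exceptions. Such a position above WT was common on these arrays: 26.7% of all genes, and 35.2% of genes that were not dim, read higher on both mut/mut 2 and 3 than on both WT arrays. A difference of at least 0.32 on the log2 scale, the smallest among the 7, was found for 18.3% of the genes that were not dim, and one at least as large as that of Calcoco2 for 0.086%. On the array labelled mut/mut 1, the 9 genes lay between 0.07 below and 0.04 above their WT means, and the 2 WT arrays differed from each other by at most 0.08. In RNA from whole cultures, more cells of a type and more RNA per cell cannot be told apart.

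**Figure D1:**
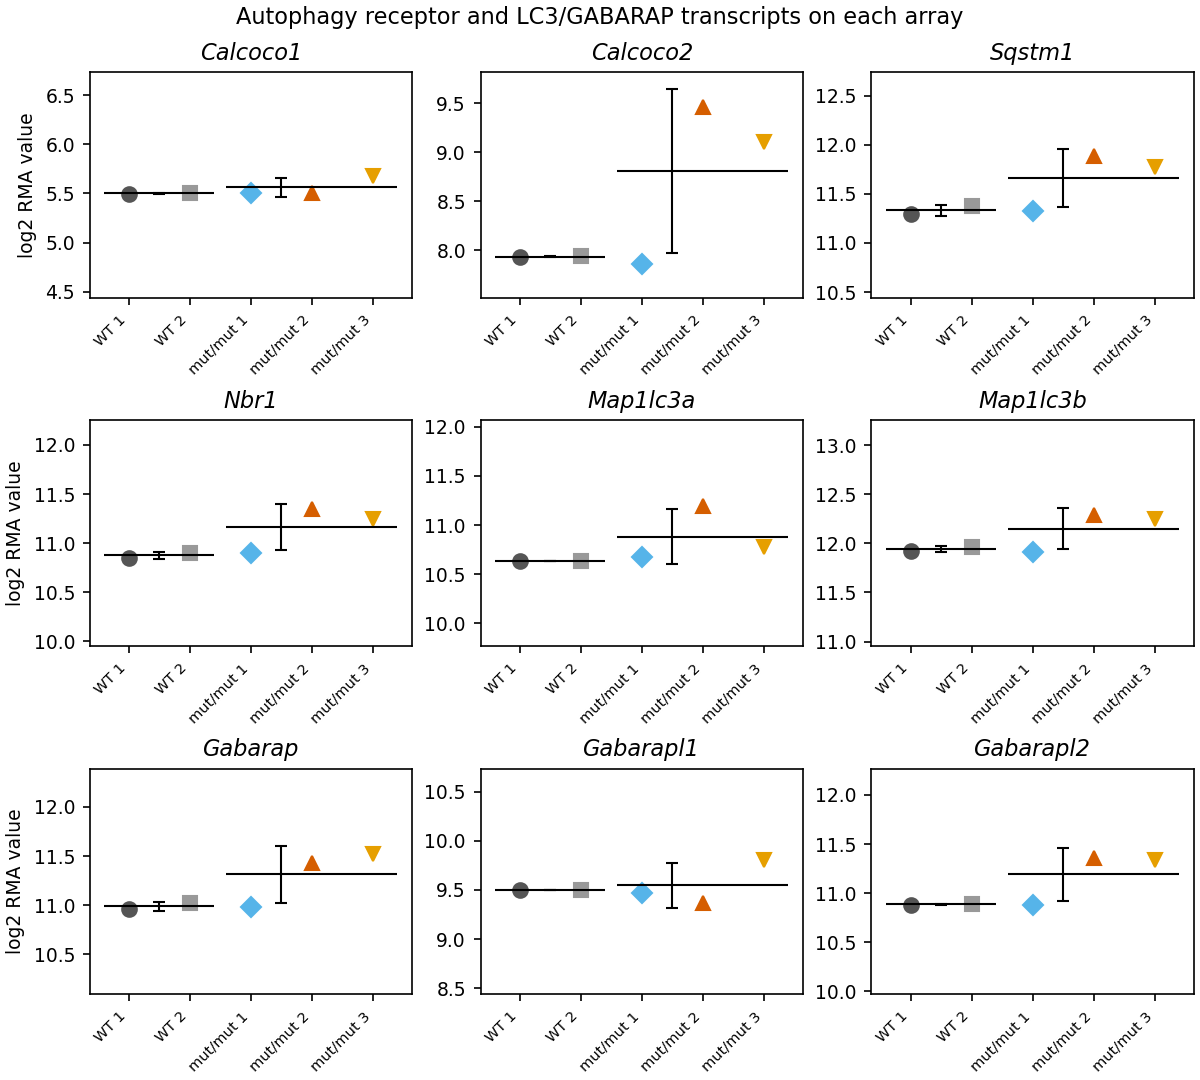
Log2 RMA value (vertical axis, each panel spanning the same range) of the 9 measured genes on the 5 arrays (horizontal axis; WT and Trip12 mut/mut, abbreviated mut/mut). Horizontal lines are group means and error bars SDs (n = 2 and n = 3). In 7 panels mut/mut 2 and 3 lie above both WT arrays, while mut/mut 1 lies at the WT level.

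As labelled, with all 5 arrays, none of the 9 genes passed the test. Limma, fitted over all 18193 genes with Benjamini-Hochberg adjustment and a threshold of 0.05, called 0 genes, or 0% of those tested, against 214 at an unadjusted p below 0.05, and 0 of the 9 were among the latter. The adjusted p was 0.748 for 7 of the genes, 0.769 for Calcoco1 and 0.925 for Gabarapl1. Without the array labelled mut/mut 1, limma again called 0 of 18193 genes, or 0%, with 3730 below an unadjusted 0.05. Without that array and with dim genes removed, so that only genes with at least 2 of the 4 arrays above the median of all probe sets (5.52) were tested, limma called 539 of 11626 genes, or 4.64%; 3.29% were higher. Of the measured genes 8 were tested there and 2 passed, Calcoco2 and Gabarapl2, both higher. The large difference of Calcoco2 was known when the group was chosen and is given as a description, without its p. An array was set aside there for its own values, which makes these p-values too small; they do not count as separate evidence.

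Calcoco2 encodes NDP52, whose human form is a receptor known for binding ubiquitin-coated bacteria and damaged mitochondria. Whether the mouse protein does the same was not examined here. It read 7.94 and 7.94 on the WT arrays, 7.87 on the array labelled mut/mut 1, 9.46 on mut/mut 2 and 9.10 on mut/mut 3. The WT pair lay close, with a mean of 7.94 ± 0.003 (SD, n = 2), and both of the last 2 arrays were more than 1 log2 unit above it. Since 20.5% of probe sets had equal values on the WT arrays, so small an SD may understate the spread between cultures. Relative to the WT mean, mut/mut 2 and 3 were at 2.88-fold and 2.24-fold, and the array labelled mut/mut 1 was at 0.952-fold. Over all 5 arrays the mutant mean was 8.81 ± 0.84 (SD, n = 3), a difference of 0.87 with an SE of 0.52 and a 95% interval from -0.52 to 2.27. This gene had 1 probe set.

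Sqstm1 encodes p62, the receptor that gathers ubiquitinated proteins into bodies for degradation and that also binds KEAP1. Its values were 11.29 and 11.37 in WT, 11.33 on the array labelled mut/mut 1, 11.88 on mut/mut 2 and 11.77 on mut/mut 3. The array labelled mut/mut 1 fell between the WT arrays, and mut/mut 2 and 3 were at 1.47-fold and 1.36-fold the WT mean. Without the array labelled mut/mut 1 the difference was 0.50 (SE 0.08), which did not pass (limma, adjusted p = 0.0556 with dim genes removed and 0.0885 over all genes). A second, dim Sqstm1 probe set read 5.07 and 4.92 in WT, and 4.63 and 4.92 on mut/mut 2 and 3.

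Nbr1 encodes a receptor related to p62 in its domains, with which it shares cargo. It read 10.85 and 10.90 in WT, 10.90 on the array labelled mut/mut 1, 11.35 on mut/mut 2 and 11.24 on mut/mut 3. The array labelled mut/mut 1 had the same value as WT 2, and mut/mut 2 and 3 were 1.39-fold and 1.29-fold the WT mean. The difference without that array, 0.42 (SE 0.08), did not pass (limma, adjusted p = 0.0629 with dim genes removed). A second Nbr1 probe set placed mut/mut 3 at 7.93, above WT values of 7.34 and 7.53, but mut/mut 2 at 7.53, level with the higher WT array.

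Calcoco1, a paralog of Calcoco2 that is known as a receptor for the endoplasmic reticulum and the Golgi apparatus, did not share the position of Calcoco2. Its values were 5.50 and 5.51 in WT, 5.51 on the array labelled mut/mut 1, 5.51 on mut/mut 2 and 5.67 on mut/mut 3. These values lie at the median of all probe sets, and the gene was dropped where dim genes were removed. Over all 5 arrays the difference was 0.06 with a 95% interval from -0.14 to 0.26. Its other probe set read 4.58 on every array. RMA gives no detection call, so whether the transcript was above background is not known.

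Map1lc3b and Map1lc3a encode LC3B and LC3A, the proteins that receptors meet on the membrane. Map1lc3b read 11.92 and 11.97 in WT, 11.91 on the array labelled mut/mut 1, 12.29 on mut/mut 2 and 12.25 on mut/mut 3. The arrays mut/mut 2 and 3 were at 1.27-fold and 1.23-fold the WT mean, and the difference without the array labelled mut/mut 1, 0.32 (SE 0.07), did not pass (limma, adjusted p = 0.0757 with dim genes removed). Of its 3 other probe sets, the 2 that were not dim also had both mutant arrays above both WT arrays, by 0.44 and 0.37 on average. The dim one read 5.31 in WT, and 5.28 and 5.31 on mut/mut 2 and 3.

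Map1lc3a read 10.63 and 10.64 in WT, 10.67 on the array labelled mut/mut 1, 11.20 on mut/mut 2 and 10.78 on mut/mut 3. It was the one gene of the 9 with all 3 mutant arrays above both WT arrays, which 5.73% of all genes showed, yet mut/mut 2 was at 1.48-fold and mut/mut 3 at 1.10-fold, so that the difference of 0.35 had an SE of 0.16 and did not pass (limma, adjusted p = 0.258, without the array labelled mut/mut 1 and with dim genes removed). The name of this probe set ends in x_at, which Affymetrix uses where some probes also match unrelated sequences. The second Map1lc3a probe set, without that ending, read 8.53 and 8.57 in WT and 9.05 and 8.91 on mut/mut 2 and 3, at 1.35-fold on average, with the array labelled mut/mut 1 at 8.46. The 2 probe sets thus differ in how far mut/mut 3 stood above WT.

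GABARAP proteins are the other branch of the same ubiquitin-like family and act later in the closing and fusion of the membrane. Gabarapl2 read 10.88 and 10.89 in WT, 10.88 on the array labelled mut/mut 1, 11.36 on mut/mut 2 and 11.33 on mut/mut 3. The pairs were narrow, with SDs of 0.008 in WT and 0.017 between mut/mut 2 and 3, and the 2 mutant arrays were at 1.39-fold and 1.36-fold. Without the array labelled mut/mut 1 and with dim genes removed it rose by 0.46 (SE 0.07, limma adjusted p = 0.0497), while with the dim genes kept the adjusted p was 0.0785. Over the 14 alternatives tried its adjusted p ran from 0.0497 to 0.987, and the single call lies next to the threshold. A dim second probe set, with a WT mean of 4.71, read 4.77 on mut/mut 2 and 5.18 on mut/mut 3.

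Gabarap read 10.96 and 11.02 in WT, 10.99 on the array labelled mut/mut 1, 11.43 on mut/mut 2 and 11.53 on mut/mut 3. It was at 1.36-fold and 1.45-fold the WT mean, and the only one of the 7 genes with the higher value on mut/mut 3. The difference without the array labelled mut/mut 1, 0.49 (SE 0.08), did not pass (limma, adjusted p = 0.0533 with dim genes removed).

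The probe sets of Gabarapl1 disagreed. The one with the highest mean read 9.51 on both WT arrays, 9.47 on the array labelled mut/mut 1, 9.37 on mut/mut 2 and 9.80 on mut/mut 3, so the last 2 lay on opposite sides of WT. Its name ends in s_at, which Affymetrix uses where probes match transcripts of more than 1 gene. The other probe set read 8.34 and 8.42 in WT, 8.43 on the array labelled mut/mut 1, 9.07 on mut/mut 2 and 8.86 on mut/mut 3, on average 0.58 above the WT mean on the log2 scale. By the first, the difference without the array labelled mut/mut 1 and with dim genes removed was 0.08 with a 95% interval from -0.39 to 0.55, which ends just short of the 0.58 of the second.

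**Figure D2:**
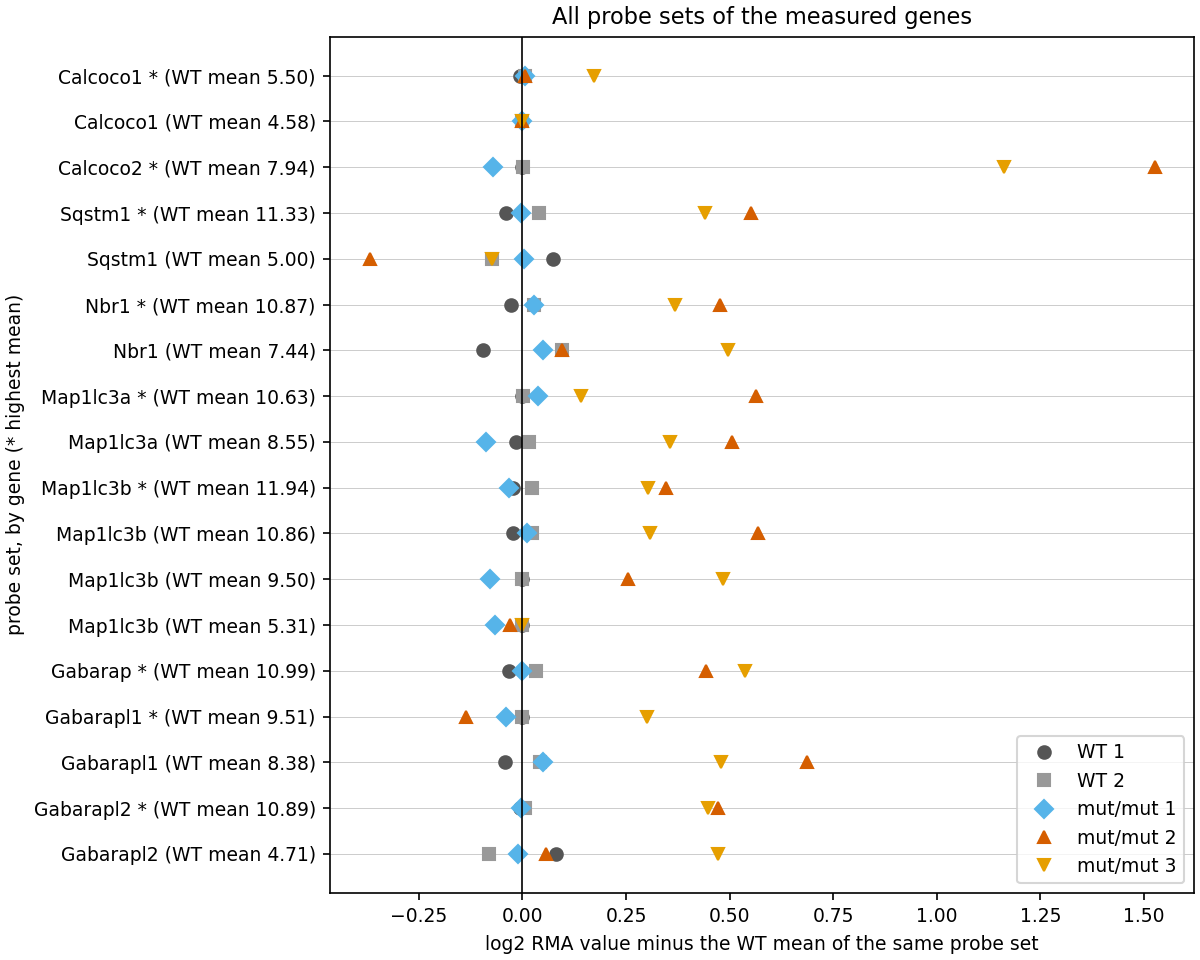
Log2 RMA value of all 18 probe sets of the 9 genes on each array, as the difference from the WT mean of the same probe set (horizontal axis); rows are probe sets, with the WT mean in brackets and a star for the one with the highest mean. Of the 5 further probe sets that were not dim, 4 have mut/mut 2 and 3 above both WT arrays, and of the 4 dim ones 0 do. The like share over all probe sets was not counted.

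Over the 18 probe sets, 9 were not the brightest of their gene. Of these, 5 had a mean above the median of all probe sets, and 4 of the 5 had mut/mut 2 and 3 above both WT arrays: those of Gabarapl1 and Map1lc3a and both of Map1lc3b. The remaining one was that of Nbr1. Among the 4 dim probe sets, of Calcoco1, Gabarapl2, Map1lc3b and Sqstm1, there were 0. Probe sets of 1 gene share its transcript and are not replicates. The like share over all probe sets was not counted, so these counts add no support. Among all genes that were not dim, each by its brightest probe set, 35.2% had mut/mut 2 and 3 above both WT arrays.

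Promoter sequence was available for 8 of the 10 genes, from RefSeq (build GRCm38.p6), as the bases before the annotated start. Calcoco2 and Map1lc3a had none, so the motif counts below leave them out. The 8 include Optn, whose signal was not analysed here. Sqstm1 and Gabarapl2 are shown as a receptor and an LC3-type gene that read higher on mut/mut 2 and 3, and Calcoco1 as the receptor that did not. Each window holds 250 bases, 5′ to 3′ on the gene's strand, at chr11:50210821-50211070 (minus strand), chr8:111940453-111940702 (plus strand) and chr15:102722179-102722428 (minus strand). Capitals mark the GC box, GGGCGG or its reverse complement, the sequence known to be bound by Sp1-type factors.
Sqstm1: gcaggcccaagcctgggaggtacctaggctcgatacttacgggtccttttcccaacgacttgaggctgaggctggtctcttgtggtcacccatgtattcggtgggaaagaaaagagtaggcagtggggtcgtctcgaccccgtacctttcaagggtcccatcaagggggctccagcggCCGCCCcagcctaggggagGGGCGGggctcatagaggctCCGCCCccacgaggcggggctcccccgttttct
Gabarapl2: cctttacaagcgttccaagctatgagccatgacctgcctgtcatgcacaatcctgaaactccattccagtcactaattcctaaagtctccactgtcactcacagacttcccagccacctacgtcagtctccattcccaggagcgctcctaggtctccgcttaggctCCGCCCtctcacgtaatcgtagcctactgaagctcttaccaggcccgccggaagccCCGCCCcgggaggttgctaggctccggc
Calcoco1: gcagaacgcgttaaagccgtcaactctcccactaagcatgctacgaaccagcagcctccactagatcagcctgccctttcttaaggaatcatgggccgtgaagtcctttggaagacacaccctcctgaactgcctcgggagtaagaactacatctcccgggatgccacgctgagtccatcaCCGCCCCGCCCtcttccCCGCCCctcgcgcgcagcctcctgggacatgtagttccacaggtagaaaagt

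The GC box was found 3 times before Sqstm1, at 72, 53 and 33 bases before the start, 2 times before Gabarapl2, at 84 and 28, and 3 times before Calcoco1, at 69, 64 and 52, where 2 of the matches overlap. It was also found before Gabarapl1, Map1lc3b and Optn, and not in the windows of Gabarap and Nbr1. Nbr1 has a second window, also without the GC box. This makes 6 of 8 genes, or 6 of their 9 windows, against 32.7% of 32851 promoter windows of the same length. It thus stood before some of the genes that read higher and before Calcoco1 too. The letters CACGTG, the core of the element known to be bound by TFEB, the factor that drives lysosomal and autophagy genes, were in 0 of the 8 genes' windows and in 6.02% of all windows. Those of the cyclic AMP response element, TGACGTCA, were likewise in 0 and in 1.55%. Each motif was searched on both strands. A match is a description of sequence, and a missing match says only that these letters are not in this window.

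In position, 4 of the 9 genes, Calcoco2, Sqstm1, Nbr1 and Gabarap, lie on chromosome 11, and Gabarapl2 and Map1lc3b lie on chromosome 8. The median difference of the mean of mut/mut 2 and 3 from WT was 0.06 over the 959 chromosome 11 bright genes (those whose mean reached the median of the probe sets), and 0.05 over 623 such genes of chromosome 8. Over the autosomes and X these medians ran from 0.0074 to 0.079. The values of the 6 genes ran from 0.32 to 1.34. All 6 read above both WT arrays on mut/mut 2 and 3, so lying above such small medians adds no information. A difference of at least 0.32 was found for 18.3% of all genes that were not dim. The like share was not counted for chromosomes 11 and 8, so a part of position in these values was not tested.

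The pattern of Calcoco2 over the 5 arrays was set against 11559 bright genes. Each gene was set to its own WT mean, and the distance was the root mean square of the differences over the 5 arrays. Nearest were Aard at 0.056, the antiviral enzyme gene Oas2 at 0.060, Timp3, an inhibitor of metalloproteinases, at 0.068, the germ cell gene Dazl at 0.081 and H2aw at 0.086. None of these is an autophagy gene of the lists used here, and Timp3 is in the list of fibroblast markers. The nearest of the other 8 genes was Sqstm1, at rank 958 with a distance of 0.54, since its difference from WT was smaller. Few genes could come near, since the distance takes in the size of the difference.

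The rest of the pathway was read from gene lists, without the array labelled mut/mut 1 and with dim genes removed. For all genes tested there the median difference was 0.05, with 35.2% of genes above and 22.1% below both WT arrays on both mutant arrays. The 8 receptor and LC3 family genes had a median of 0.44, with 7 above and 0 below. At an unadjusted p below 0.05 were 28.8% of all genes tested, against which the like counts below are to be read. Over all 5 arrays limma called 0 genes of these lists and found 0 at an unadjusted p below 0.05. Up to 3 genes per autophagy list were named for the smallest adjusted p without mut/mut 1 and with dim genes removed. Over all 5 arrays the limma adjusted p of these genes lay between 0.748 and 0.768. This range does not cover the genes named after their values were seen.

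Of 19 other selective autophagy receptors 18 were tested, with a median of 0.27; 10 read above both WT arrays on both mutant arrays and 3 below. Over all 5 arrays the median was 0.17. Limma called 0 of them, with 9 of the 18 at an unadjusted p below 0.05. Ccpg1, a receptor of the endoplasmic reticulum, differed from WT by 0.68, at 8.71 and 8.54 on mut/mut 2 and 3 (limma, adjusted p = 0.0511). Stbd1, which links glycogen to autophagy, differed by 0.59 (limma, adjusted p = 0.0753), and Tex264, a second receptor of the endoplasmic reticulum, by 0.31 (limma, adjusted p = 0.0824). The 3 below were Nufip1 (-0.35), a receptor for ribosomes, Phb2 (-0.29), a protein of the inner mitochondrial membrane, and Fundc1 (-0.18), a receptor of the outer one; they were named after their values were seen.

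Genes that take part in cutting LC3 and attaching its lipid had a median of 0.21 over 11 genes tested, with 7 above and 0 below WT on both mutant arrays. Over all 5 arrays the median of the 12 measured was 0.12. Limma called 0, with 5 below an unadjusted 0.05, or 45.5%. Tecpr1, which binds the ATG5 and ATG12 conjugate, differed by 0.49, the LC3 protease gene Atg4a by 0.54 and Atg12 by 0.43 (limma, adjusted p = 0.0753, 0.0884 and 0.0928). Genes of initiation and nucleation had a median of 0.22, or 0.15 over all 5 arrays, with 15 of 22 above and 0 below. Limma called 0, with 4 below an unadjusted 0.05, or 18.2%, a smaller share than over all genes. Atg9a, which encodes the transmembrane protein of the vesicles that seed the membrane, differed by 0.40, the kinase gene Ulk2 by 0.79 and Vmp1 by 0.33 (limma, adjusted p = 0.0585, 0.0635 and 0.0887). Genes of fusion with the lysosome had a median of 0.23, or 0.15 over all 5 arrays, with 10 of 15 above and 0 below. Limma called 0, with 6 below an unadjusted 0.05, or 40.0%. The SNARE gene Vamp8 had the smallest adjusted p, 0.0700, at a difference of 0.51, before Tecpr1, which is in this list too, and Vps39 (0.35, limma adjusted p = 0.111).

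Lysosomal genes, whose products break down what autophagy delivers, read higher nearly throughout. Of 26 tested, 23 lay above both WT arrays on both mutant arrays and 0 below, beside 35.2% and 22.1% of all genes tested. The median of the list was 0.40. The 3 others were Ctsz, Hexa and Atp6v1h, named after their values were seen. Limma called 3 as higher, or 3 of 26 beside 3.29% of all genes tested. Lamp2, a main protein of the lysosomal membrane, read 11.24 and 11.27 in WT, 11.26 on the array labelled mut/mut 1, and 12.06 and 11.95 on mut/mut 2 and 3, and rose by 0.75 (limma, adjusted p = 0.042). The alpha-galactosidase gene Gla rose by 0.62 and Ctsa, the protective protein of lysosomal glycosidases, by 0.67 (limma, adjusted p = 0.042 and 0.0477). As labelled, over all 5 arrays, none of these lysosomal genes passed (limma, 0 of 26, and 0 at an unadjusted p below 0.05), and the median was 0.27.

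**Figure D3:**
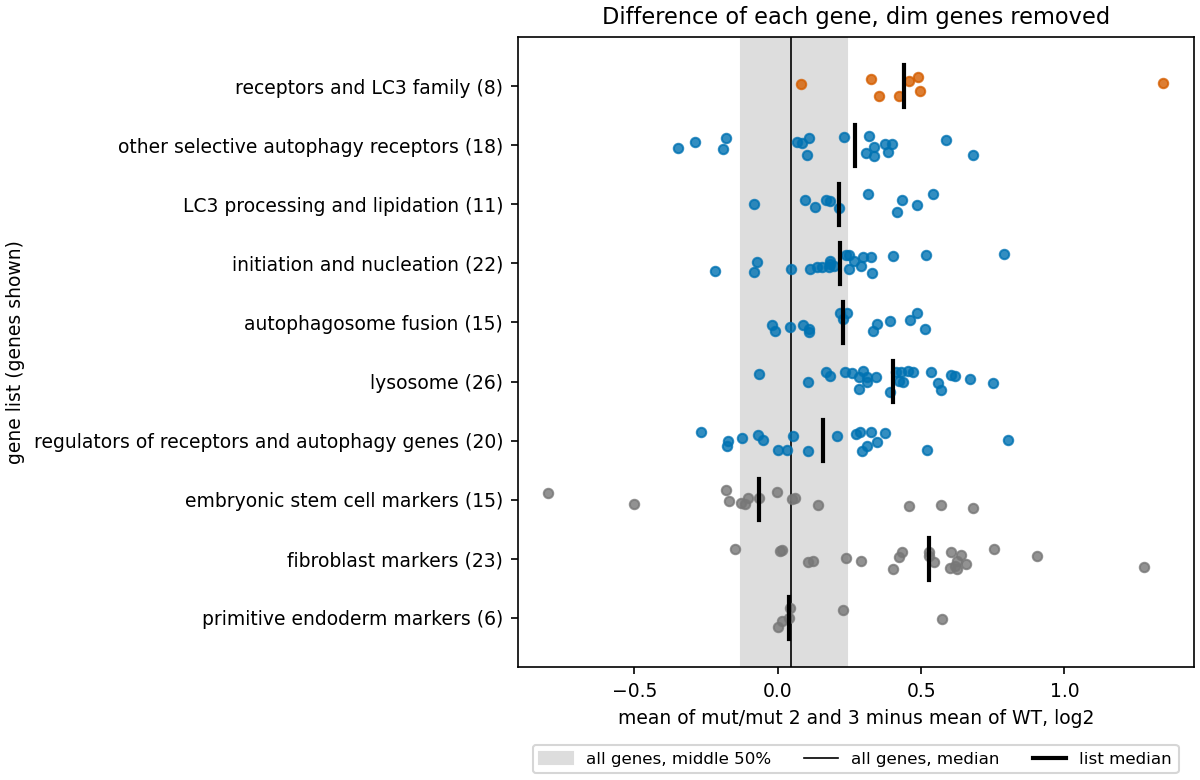
Difference between the mean of mut/mut 2 and 3 and the WT mean (log2, horizontal axis) for each gene of each list with dim genes removed; points are genes, thick bars list medians, the grey band the middle 50% of all 11626 genes and the thin line their median. The receptor and LC3 family genes and the lysosomal genes have medians of 0.44 and 0.40, beside 0.05 for all genes and 0.53 for fibroblast markers.

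Regulators of these genes did not lie to one side. Of 20 tested, 7 read above WT on both mutant arrays and 3 below, with a median of 0.16, or 0.09 over all 5 arrays. These counts lie near the background, with 7 of 20 above WT beside 35.2% of all genes tested, and 1 of 20 called beside 4.64%. Atf4, the transcription factor of the amino acid and endoplasmic reticulum stress response, was the one called. It read 10.49 and 10.54 in WT, 10.49 on the array labelled mut/mut 1, and 11.39 and 11.25 on mut/mut 2 and 3, and rose by 0.80 (limma, adjusted p = 0.042). Over all 5 arrays its difference was 0.53 and did not pass (limma, adjusted p = 0.748). Keap1, the partner of p62 in the oxidative stress response, differed by 0.35 and the mitophagy kinase gene Pink1 by 0.29 (limma, adjusted p = 0.0884 and 0.0944). The 3 below were Tfeb (-0.17), its relative Tfe3 (-0.18) and Foxo1 (-0.27), all transcription factors known to drive autophagy or lysosomal genes. They did not pass (limma) and were named after their values were seen. Of all genes tested 22.1% lay below, so 3 of 20 is no excess. Mitf (0.27) and Foxo3 (0.31), transcription factors of the same list, differed in the other direction, but not with both mutant arrays above both WT arrays.

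Markers of fibroblasts, the cell type of the feeders, stood higher on the same 2 arrays. In WT the mean level of the 24 measured markers was 10.13 and 10.14, against 10.11 on the array labelled mut/mut 1, and 10.56 and 10.61 on mut/mut 2 and 3. Of 23 tested, 17 lay above both WT arrays on both mutant arrays and 0 below, beside 35.2% and 22.1% of all genes tested. The median of the tested markers was 0.53, or 0.34 over all 5 arrays for the measured markers. Limma called 6 of the 23 as higher, or 26.1%, beside 2 of 8 receptor and LC3 family genes, 11.5% of the lysosomal genes and 3.29% of all genes tested. Col1a2 and Dcn, which fibroblasts express strongly, read 12.47 and 12.53, and 13.15 and 13.18, on the WT arrays. Other markers were lower there, such as Col1a1 at 8.88 and Fap at 5.39 on both, and Twist1 at 6.86 and 6.91. Markers not above WT on both mutant arrays included Pdgfra (0.02), Lum (0.01) and Mmp2 (-0.15). All of these were named after their values were seen. For the receptor and LC3 family genes the mean was 9.94 and 9.97 in WT, against 9.95 on the array labelled mut/mut 1, and 10.43 and 10.39 on mut/mut 2 and 3. The 15 embryonic stem cell markers averaged 10.88 on mut/mut 2 and 11.09 on mut/mut 3, on either side of WT. The 12 primitive endoderm markers averaged 5.97 and 5.99 in WT, and 5.99 and 6.00 on mut/mut 2 and 3. The part of the fibroblast genes in the values of the receptors, the LC3 family and the lysosomal genes was not tested.

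**Figure D4:**
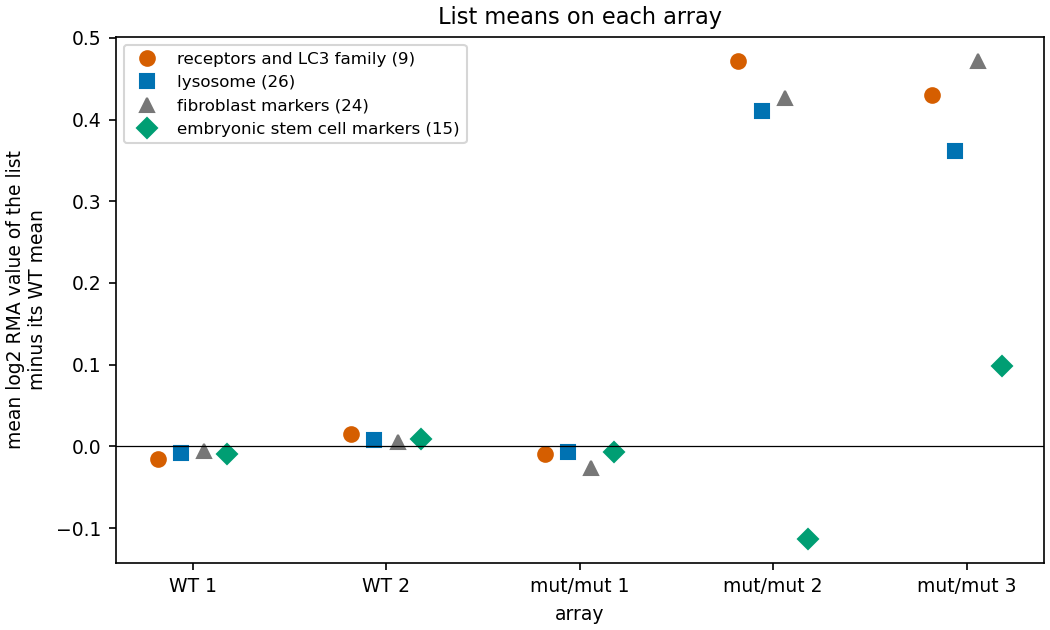
Mean log2 RMA value of 4 gene lists on each array (horizontal axis), as the difference from the list's mean over the WT arrays (vertical axis); points are list means and the number of genes is in brackets. The receptor and LC3 family, lysosomal and fibroblast lists stand above WT on mut/mut 2 and 3 and at WT on mut/mut 1, and the embryonic stem cell list lies on both sides of WT.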

How the data were processed

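The authors deposited 1 log2 value per probe set and array, made with RMA per the submitters' processing notes, whose version is not stated there. RMA subtracts background, brings all arrays to 1 distribution and combines the probes of a set, which removes any shift shared by all transcripts. Of 45101 probe sets 64 controls were left out. The platform annotation gave 34945 of the rest 1 symbol, 932 several and 9160 none, and for 34741 probe sets the symbol was taken by gene number from a RefSeq table of GRCm38.p6, the others keeping the annotation's symbol. The test was limma's moderated test (version 3.58.1, R 4.3.3) with genotype as its single term, two-sided and adjusted over all genes; levels are 1 probe set per gene. On simulated data over 18193 genes with the spread of the 5 arrays, 87 of 100 changes of 2 and 52 of 100 of 1 (log2) were recovered. There each change was put on all 3 mutant arrays, with independent normal noise. In the data the array labelled mut/mut 1 stood at WT, so this recovery does not carry over. Trip12, 2.12 higher on mut/mut 2 and 3, was not called over all 5 arrays (limma, adjusted p = 0.748). Named were the members, Trip12, up to 3 genes per autophagy list with the smallest adjusted p, and the 5 genes nearest to Calcoco2; other genes were named as cell type markers or after their values were seen. Members and lists were chosen with earlier results of these data known. The number of arrays limits the precision. Figures were drawn with matplotlib 3.10.9.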

Additional observations from a re-analysis of the deposited data

How the results depend on the processing

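The 14 alternatives were quantile normalisation, centred medians, removal of dim genes, a variance trend, array weights, the replicate number as a block, each array left out, other choices of probe set, and dim genes removed together with the array labelled mut/mut 1. The last called 539 genes and 2 of the receptor and LC3 family genes; the other 13 called 0, as did the fit over all 5 arrays. The 7 genes above WT kept a positive difference in all 98 values. They were picked for reading above WT on mut/mut 2 and 3, and each alternative kept at least 1 of those arrays. The sign was thus largely set by the choice and adds no support. Leaving out 1 array moved Calcoco2 between 0.55 and 1.34, Sqstm1 between 0.22 and 0.50 and Map1lc3a between 0.09 and 0.35, and with the mean of its probe sets Sqstm1 was at 0.09. Gabarapl1 ran from -0.088 (without mut/mut 3) to 0.13 when 1 array was left out, was at -0.088 with the replicate block, and reached 0.41 with its most variable probe set. The block leaves mut/mut 3 without a WT partner, and it changed no other direction and no call. Deviations of like-numbered arrays correlated over genes at r = -0.07. As the array labelled mut/mut 1 stood with WT and mut/mut 2 did not, this cannot show whether the numbers pair the arrays. With 1 WT array left, that array was assumed to vary like the others.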
